A study of Mus musculus with 24 samples.

Results

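Chromatin accessibility was examined at 44 mouse genes that encode regulators of chromatin and DNA methylation, among 21631 protein-coding genes of build GRCm38. A peak belonged to a gene when its summit lay inside the gene, or within 100 kb with that gene as the nearest protein-coding gene. By this rule 3542 of 565454 peaks were assigned to the 44 genes in the 18 peak lists that held 10000 or more peaks. Nearness does not show that a region acts on the gene. The genes were grouped by the function of their products: DNA methylation (7 genes), Polycomb (6), histone methylation and demethylation (9), deacetylases and corepressors (7), acetyltransferases and coactivators (3), nucleosome remodelers and ARID genes (9) and genome architecture (3).

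Accessibility was measured by Omni-ATAC, which uses a transposase to tag open DNA, on sorted CD8 T cells from mice on a C57BL/6 background with the genotype Lag3-iCreERT2 Rosa26-LSL-tdTomato. All mice carried B16-F10 melanoma, a transplantable mouse melanoma line, and received 2 mg tamoxifen on days 8 to 10 after implantation, so that cells expressing Lag3 at that time kept the red tdTomato label. Cells were taken on day 19 from tumors, from draining lymph nodes (DLN) and from non-draining ones (NDLN). The tumor libraries were DP (LAG3-positive, tdTomato-positive), LAG3_SP, TDT_SP and DN (negative for both), and the lymph nodes gave LAG3_SP, TDT_SP and DN. Names and descriptions conflict: LAG3_SP carries a description of LAG3- tdTomato+ cells, and for TDT_SP only tdTomato+ is stated, so neither name is taken here as a LAG3 or label state. The Lag3 promoter drives the recombinase, so the label records Lag3 expression during tamoxifen treatment only, and Lag3 activity before or after it leaves no label. Each tumor group had 3 usable libraries and each lymph node group had 1. Whether replicates are separate mice is not stated, so p-values measure only the spread between these libraries, which may be technical.

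DNA methyltransferases such as Dnmt1 and Dnmt3a add methyl groups to cytosine, and the TET enzymes oxidise them, which leads to demethylation. Polycomb repressive complex 2, built on Ezh2 or Ezh1 with Eed and Suz12, methylates histone H3 at lysine 27, while enzymes such as Kdm6b remove that mark. In CD8 T cells Dnmt3a, Tet2 and Ezh2 are known to influence the choice between effector, memory and exhausted states, and exhausted T cells are known for a chromatin landscape of their own.

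The 18 lists held 14244 to 48268 peaks, of which 85 to 283 per list, or 0.561% to 0.707%, were assigned to the 44 genes. Peaks were found near 36 to 44 of the genes in each list. The other 6 libraries had 301 to 6613 peaks and entered no comparison at the main setting. Of 8 CD8 T cell marker genes, 6 or 7 had a peak in every list used, and Trac was not in the gene table. B cell markers had peaks at 0 to 3 of 6 genes in tumor lists and 1 to 4 of 6 in lymph node lists, with no peak at Cd79b or Ms4a1 in any list. Tumor and lymph node lists had peaks at 3 or 4 and at 2 or 3 of 6 myeloid genes, at 2 and at 1 to 3 of 3 NK genes, at 1 to 4 of 4 CD4 and regulatory T cell genes in both tissues, and at 1 to 4 and 2 to 6 of 6 stromal and endothelial genes. Melanoma markers had peaks at 2 to 6 of 7 genes in tumor lists and 2 or 3 of 7 in lymph node lists, and tumor DN replicate 2 was the library with 6. Tyr and Tyrp1 had a peak in no other library. The 4 tumor libraries numbered replicate 3 or 4 (1 per group) stood apart: their deviations from the group means correlated positively with each other in all 6 pairs (r from 0.187 to 0.333) and negatively with those of replicates 1 and 2 in all 24 pairs (from -0.251 to -0.0513). Deviations sum to 0 within each group, so the negative correlations follow in part from the positive ones and are no separate support. The lists of these 4 libraries were also the shortest in tumor, at 19679 to 24050 peaks, against 25056 to 48268. The comparisons are therefore also given with this set as a term and for replicates 1 and 2 alone, both chosen after the data were seen. The part of other cell types in the results below was not tested, and in bulk libraries a change in the share of cells cannot be told apart from a change in each cell.

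Some of the promoter windows that overlapped regions differing between tumor and lymph node are shown first, as they are the called regions with a printed sequence. Each is the 250 bases before an annotated start in RefSeq (GRCm38.p6), written 5′ to 3′ on the gene's strand. Capitals mark the GC box GGGCGG or the ETS core CCGGAA on either strand. Satb1 encodes a chromatin organiser of T cells and has several annotated starts. Its most upstream start, chr17:51833291-51833540 on the minus strand, is given first, and a start inside the gene, chr17:51826589-51826838 on the minus strand, second. Both overlapped regions that were lower in tumor.

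Satb1 upstream start: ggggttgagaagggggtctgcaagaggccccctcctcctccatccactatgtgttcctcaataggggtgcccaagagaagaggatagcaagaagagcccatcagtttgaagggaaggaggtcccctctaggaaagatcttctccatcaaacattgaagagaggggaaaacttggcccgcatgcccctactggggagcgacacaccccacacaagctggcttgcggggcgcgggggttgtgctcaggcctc

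Satb1 inner start: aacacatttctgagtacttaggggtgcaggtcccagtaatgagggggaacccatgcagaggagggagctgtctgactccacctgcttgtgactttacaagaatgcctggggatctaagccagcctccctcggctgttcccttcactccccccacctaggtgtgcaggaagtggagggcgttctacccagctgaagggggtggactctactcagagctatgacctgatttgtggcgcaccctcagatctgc

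These windows held 5 and 3 CpG dinucleotides, and neither motif was found in them. They do not stand for every Satb1 start. The start at chr17:51832647 held 41 CpG and 3 GC boxes, and its window overlapped no region called between tumor and lymph node. The starts at chr17:51812054 and chr17:51812184 held 6 and 12 CpG and 0 GC boxes. The Tet2 promoter, chr3:133544391-133544640 on the minus strand, also overlapped a region that was lower in tumor, and it held 51 CpG. It is GC-rich (83.6%) and carries 1 GC box.

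Tet2: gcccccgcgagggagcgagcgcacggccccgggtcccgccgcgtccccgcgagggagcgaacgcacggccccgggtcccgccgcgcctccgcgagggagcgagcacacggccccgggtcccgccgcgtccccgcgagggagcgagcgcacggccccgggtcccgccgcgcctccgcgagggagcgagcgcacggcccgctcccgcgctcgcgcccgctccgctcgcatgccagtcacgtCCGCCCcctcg

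The promoters of Smarca4, which encodes the BRG1 ATPase of the BAF remodeling complex (chr9:21615919-21616168, plus strand), and of Suz12 (chr11:79992856-79993105, plus strand) overlapped regions that were higher in tumor. They held 25 and 37 CpG, and 3 GC boxes each. The Ezh1 promoter and a pair of overlapping Kdm2b windows also overlapped regions higher in tumor, but are not printed. The Ezh1 window held 14 CpG and 0 GC boxes. The Kdm2b windows held 36 and 38 CpG, with 5 and 6 GC boxes.

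Smarca4: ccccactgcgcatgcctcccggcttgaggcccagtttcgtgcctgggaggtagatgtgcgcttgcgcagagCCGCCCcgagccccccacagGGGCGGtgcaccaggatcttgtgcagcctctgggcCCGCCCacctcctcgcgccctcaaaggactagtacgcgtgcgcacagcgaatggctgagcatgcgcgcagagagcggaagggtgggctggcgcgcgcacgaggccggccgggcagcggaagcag

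Suz12: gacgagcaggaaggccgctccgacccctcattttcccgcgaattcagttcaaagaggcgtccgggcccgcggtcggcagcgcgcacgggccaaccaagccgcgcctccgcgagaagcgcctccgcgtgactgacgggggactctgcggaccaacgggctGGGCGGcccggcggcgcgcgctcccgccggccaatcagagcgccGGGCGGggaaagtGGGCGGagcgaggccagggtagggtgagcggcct

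Across the 56 promoter windows of 36 members present in the RefSeq table, the median was 22 CpG per 250 bases, against 6 in all 32851 windows of the table. A GC box was found in 38 of the 56 (67.9%), against 32.7% of all windows, and the ETS core in 10 (17.9%), against 12.03%. Of the 56, 17 overlapped a peak in all 18 lists and had a median of 27 CpG, while 7 overlapped none and had a median of 5. None of the 7 held a GC box. A motif match describes letters and does not show binding. Chd3, Chd7, Hdac1, Hdac3, Kdm5a, Kdm6b, Ncoa2 and Rad21 were not matched.

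Lists of different length were made comparable by keeping the same number of strongest peaks in every library of a fit. The rank value of a peak is its quantile, by the authors' -log10 p, among the kept peaks of its library: 1 for the strongest, near 0 for the weakest, and 0 where no kept peak overlapped the region. A rank value gives an order within a library and not an amount of open chromatin. The fit of the 12 tumor libraries kept 19000 peaks each and had 27065 regions of fixed width around summits, of which 168 lay near 43 of the 44 genes. The fit of 15 tumor and lymph node libraries kept 14000 peaks and had 22997 regions, 157 of them near 42 of the genes. A region was called at an adjusted p under 0.05 (limma, Benjamini-Hochberg over all regions of the fit).

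Across tumor libraries the genes differed widely in how strong their best region was. Hdac4, which encodes a class IIa histone deacetylase, and Kdm4a, a demethylase gene for histone H3 lysine 9 and 36, had promoters near the top of the order. The strongest Kdm4a region, at its promoter, had a mean rank value of 0.99 ± 0.014 and that of Hdac4, also at the promoter, 0.984 ± 0.0091 (SD over the 12 tumor libraries). Smarca2, the paralog of Smarca4, followed at 0.942 ± 0.035 and Rad21, a cohesin subunit gene, at 0.92 ± 0.045. At the low end were Dnmt3b, a de novo methyltransferase gene used mainly in early embryos, at 0.0437 ± 0.092, and Tet1 at 0.0517 ± 0.13. Satb1 (0.188 ± 0.17), Setdb1 (0.200 ± 0.17) and Kmt2d (0.231 ± 0.20) were also low in tumor. Hdac9 had no region in either fit, and its peaks appeared in 8 of the 18 whole lists.

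**Figure D1:**
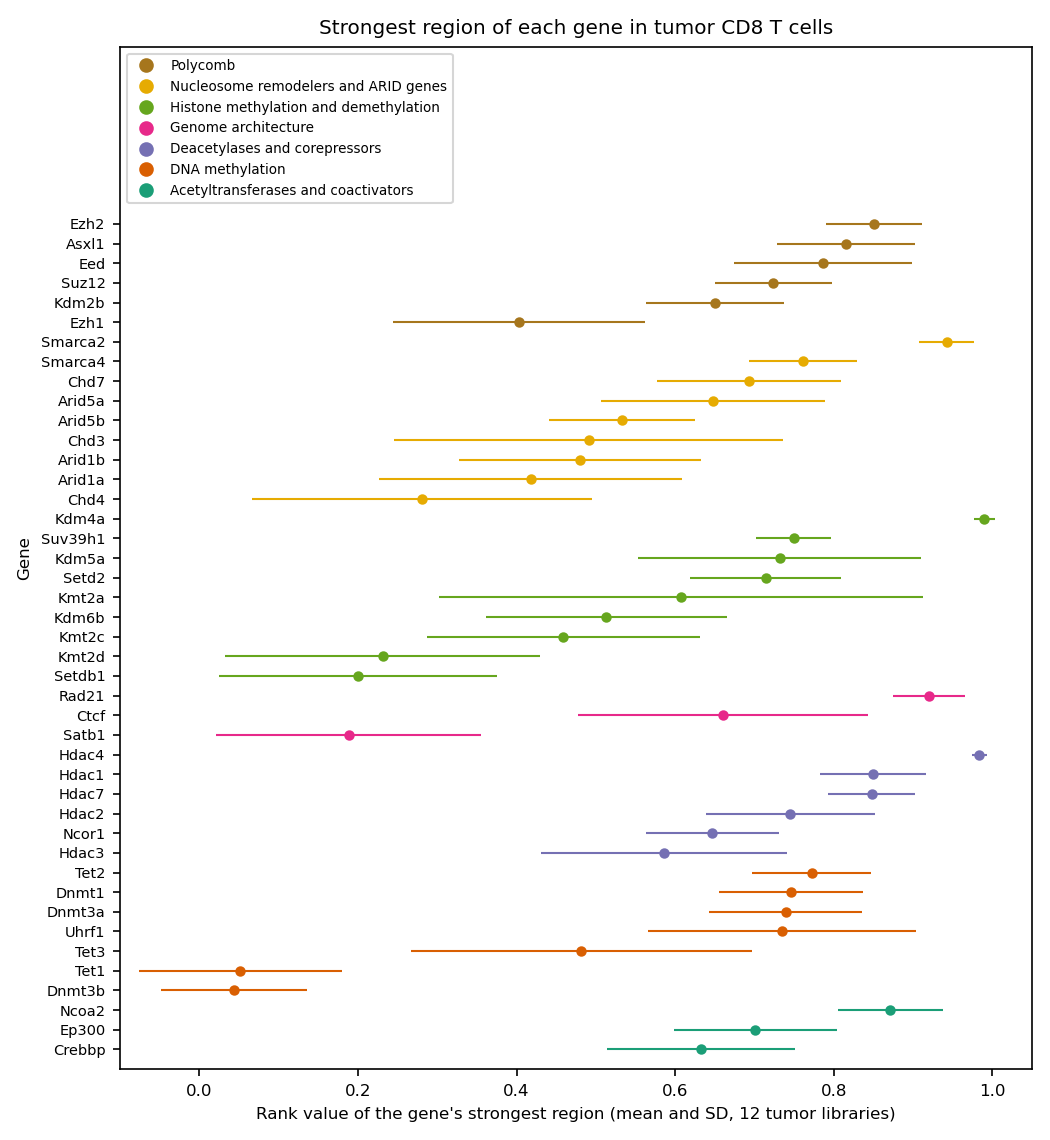
Mean rank value (x axis, 0 to 1) of the strongest region of each of the 43 genes with a region in the tumor fit. Points are means over the 12 tumor libraries, bars are SD and may extend past the possible range, and colors give the functional class. Kdm4a and Hdac4 stand at 0.99 and 0.984, and Tet1 and Dnmt3b at 0.0517 and 0.0437.

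Within classes the strongest region was often the promoter. In DNA methylation, the Tet2, Dnmt1 and Uhrf1 promoters had means of 0.772, 0.746 and 0.735. For Dnmt3a it was a region inside the gene, at 0.739, and for Tet3 the promoter, at 0.482. Among Polycomb genes the strongest regions were those of Ezh2 (0.851), Asxl1 (0.815), Eed (0.787, a region 26.45 kb away), Suz12 (0.724), Kdm2b (0.650) and Ezh1 (0.403). Deacetylase and corepressor genes other than Hdac4 and Hdac9 lay between 0.586 (Hdac3) and 0.849 (Hdac1), with Hdac7 at 0.848, Hdac2 at 0.745 and Ncor1 at 0.647. The acetyltransferase genes Ep300 and Crebbp were at 0.701 and 0.633, and the coactivator gene Ncoa2 at 0.871.

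The remaining strongest regions were those of Suv39h1 (0.749), Kdm5a (0.732), Setd2 (0.714), Kmt2a (0.608), Kdm6b (0.513) and Kmt2c (0.459) among histone methylation genes. In the remodeler class they were those of Smarca4 (0.761), Chd7 (0.693), Arid5a (0.648), Arid5b (0.533), Chd3 (0.491), Arid1b (0.480), Arid1a (0.418) and Chd4 (0.281). Ctcf, which encodes the insulator protein CTCF, was at 0.660. The number of peaks also ranged widely. Chd7, whose product is a CHD-family remodeler, had the most, with 11 to 31 per whole list (median 20.5), and Hdac3 the fewest, with 0 or 1 per list and 14 in all.

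The share of all peaks that lay at the 44 genes was 0.617% ± 0.051 in DP, 0.608% ± 0.041 in LAG3_SP, 0.612% ± 0.043 in TDT_SP and 0.613% ± 0.025 in DN (SD, n = 3 each), so the means differed by less than the spread within a group. Among the strongest 4000 peaks it was 0.458% ± 0.029 in DP, 0.45% ± 0.05 in LAG3_SP, 0.4% ± 0.14 in TDT_SP and 0.375% ± 0.025 in DN (SD, n = 3 each), and there the gap between DP and DN was wider than the SD of either group. That gap was not tested, and it rests on 19, 19 and 17 peaks in DP and 14, 16 and 15 in DN. Among the strongest 14000 peaks the share was 0.648% ± 0.0082 in DP and 0.648% ± 0.046 in LAG3_SP. It was 0.664% ± 0.036 in TDT_SP and 0.638% ± 0.048 in DN (SD, n = 3 each). At that setting DP and DN differed by less than the SD of DN. In lymph nodes, with 1 library per group, the share of all peaks was 0.695%, 0.707% and 0.677% in DLN LAG3_SP, TDT_SP and DN. In the same NDLN groups the share of all peaks at the 44 genes was 0.597%, 0.671% and 0.627%. The median quantile of these peaks within a list was 0.461 to 0.590.

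In tumor, DP cells were compared with DN cells, that is, cells with label and LAG3 protein against cells with neither. The clearest differences were regions far from promoters that were strong in DP and weak or missing in DN, near Tet2, Eed, Ezh2 and inside Kdm4a. Of 168 member regions, 9 rose and 3 fell (7.14%), while 3.94% of all 27065 regions were called, 2.6% higher and 1.34% lower. Of the 9 that rose, 6 had no kept peak in the 3 DN libraries. In the tumor comparisons with DN, such a region could only rise, and its spread is set partly by values of 0. The median difference was -0.0102 over member regions and -0.0050 over all regions, and 33 member regions (19.6%) had an unadjusted p under 0.05, against 18.4% of all regions.

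Tet2 encodes a 5-methylcytosine dioxygenase. A region 26.53 kb beyond the gene (chr3:133436897-133437397), 107 kb downstream of its start, had rank values of 0.872, 0.914 and 0.928 in DP, against 0, 0 and 0.0968 in DN. It was at 0.890, 0.905 and 0.822 in LAG3_SP and at 0.706, 0.718 and 0.649 in TDT_SP. Every DP, LAG3_SP and TDT_SP library was above every DN library. The difference for DP minus DN was 0.872 (SE 0.063, adjusted p = 0.000113, limma). A second Tet2 region, inside the gene (chr3:133515160-133515660), was at 0.406, 0.558 and 0.421 in DP and at 0.764, 0.548 and 0.407 in LAG3_SP. It had no kept peak in the 3 TDT_SP or the 3 DN libraries (DP minus DN 0.46, SE 0.11). The region entered the fit only through DP and LAG3_SP, so its direction was fixed and no p is given for it. The Tet2 promoter was not called in this comparison (adjusted p = 0.487, limma).

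Eed encodes the Polycomb subunit that binds methylated lysine 27 of histone H3. A region 61.66 kb upstream of it (chr7:90042385-90042885) was at 0.799, 0.832 and 0.897 in DP, against no kept peak in the 3 DN libraries (difference 0.843, SE 0.088, adjusted p = 0.000649, limma). It was at 0.868, 0.797 and 0.750 in LAG3_SP, and lower, at 0.323, 0.410 and 0.547, in TDT_SP. Ezh2 encodes the catalytic subunit of the same complex. A region 25.96 kb beyond Ezh2 (chr6:47620979-47621479) was at 0.721, 0.766 and 0.5997 in DP and had no kept peak in DN (difference 0.70, SE 0.12, adjusted p = 0.0075, limma). TDT_SP was uneven there, at 0.478, 0.0101 and 0.255.

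Inside Kdm4a, 17.8 kb downstream of its start (chr4:118162042-118162542), DP libraries were at 0.693, 0.527 and 0.768 and the 3 DN libraries had no kept peak (difference 0.66, SE 0.10, adjusted p = 0.00419, limma). This region differed between groups while the Kdm4a promoter averaged 0.99 over the 12 tumor libraries. A region inside Kmt2a, which encodes the MLL1 methyltransferase of histone H3 lysine 4 (chr9:44868640-44869140), was at 0.848, 0.863 and 0.633 in DP, against 0, 0.538 and 0 in DN (adjusted p = 0.0233, limma). DN replicate 2 was the DN library with a peak there.

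Of the remodeler and ARID genes, Arid5a and Arid5b each had a region that rose. The Arid5a region 2.0 kb from the gene (chr1:36325792-36326292) was at 0.654, 0.797 and 0.587 in DP with no kept peak in DN (adjusted p = 0.0131, limma). The Arid5b region 14.95 kb beyond the gene (chr10:68294058-68294558) was at 0.668, 0.608 and 0.710 in DP, and also had no kept peak in DN (adjusted p = 0.0161, limma). TDT_SP was close to DN in both regions, at 0 to 0.131 for Arid5a and 0 to 0.137 for Arid5b. A region inside Ncoa2, a nuclear receptor coactivator gene (chr1:13155256-13155756), was at 0.713, 0.652 and 0.434 in DP, against 0.120, 0.206 and 0 in DN (adjusted p = 0.0283, limma).

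The 3 regions that fell in DP were in other genes or other parts of the same genes. Rad21, inside the gene (chr15:51991622-51992122), was at 0.900, 0.861 and 0.865 in DP, against 0.985, 0.972 and 0.978 in DN, a small difference with no overlap (-0.103, SE 0.024, adjusted p = 0.033, limma). A region 46.06 kb beyond Satb1 (chr17:51879096-51879596) had no kept peak in DP and values of 0.122, 0.295 and 0.507 in DN (adjusted p = 0.0386, limma). A region inside Arid5b (chr10:68239062-68239562) had no kept peak in DP and was at 0.201, 0.294 and 0.376 in DN (adjusted p = 0.0317, limma). None of the 3 was called without DN replicate 2, DP replicate 1, DP replicate 2, DP replicate 4 or TDT_SP replicate 1, nor in replicates 1 and 2 alone. Of 12 fits that each left out 1 library, 5 called the Rad21 region, 5 the Arid5b region and 3 the Satb1 region. No deacetylase or corepressor region was called among 17. The one with the smallest p lay inside Hdac4 (chr1:92119194-92119694), at 0.535, 0.774 and 0.434 in DP, against 0.117, 0.277 and 0 in DN (adjusted p = 0.0905, limma).

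**Figure D2:**
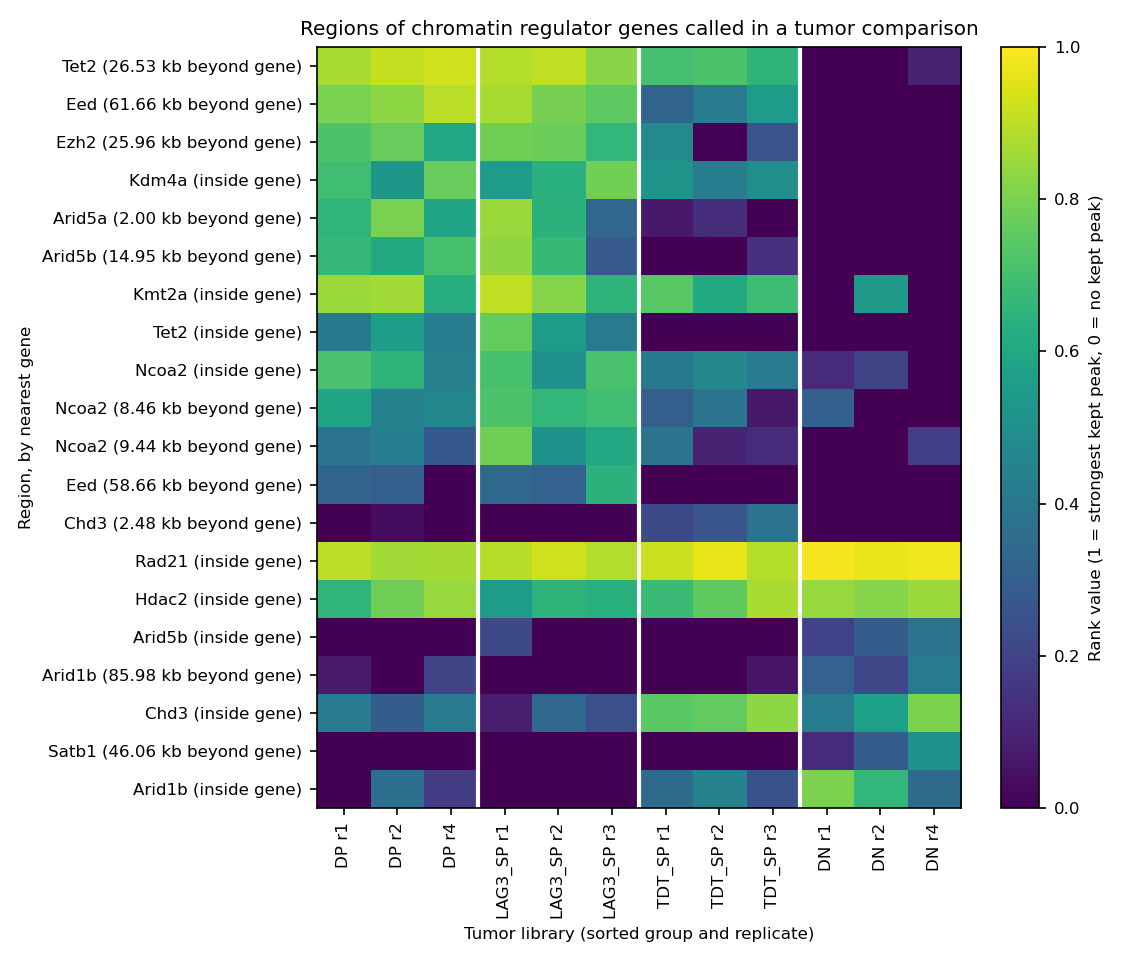
Rank value (color, 0 to 1) of the 20 member regions called in any tumor comparison, with 1 column per library in the order DP, LAG3_SP, TDT_SP, DN and 1 row per region. The Tet2, Eed, Ezh2, Kdm4a, Arid5a and Arid5b regions at the top are dark in DN and bright in DP and LAG3_SP, while TDT_SP lies between them or near DN.

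None of the 9 regions that rose in DP lay within 1 kb of the end of a protein-coding gene, compared with 39 of the 168 member regions tested (23.2%). Over all regions, 4.69% of those that rose lay that close, against 37.1% of those tested. The count of called member regions was 7 without DN replicate 2, 5 without DP replicate 1 and 5 without DP replicate 2. The Tet2 region beyond the gene and the Eed, Kdm4a and Ezh2 regions were called whichever library was left out. With all peaks of each library in place of the strongest 19000, 2 regions were called, the first Tet2 region and the Eed region, and with the strongest 4000 none was. All 12 calls held with the library set as a term, and 7 held in replicates 1 and 2 alone, where 17 member regions were called.

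LAG3_SP cells were compared with the same 3 DN libraries, so this comparison shares its controls with the one above. It called 12 member regions higher and 4 lower of 168 (9.52%), against 5.61% of all regions (3.61% higher, 2.01% lower). The median difference was -0.0285 over member regions and -0.0165 over all regions. Of the 18 regions called in either comparison, 10 were called in both, and they are given with both groups' values here. The Tet2 region beyond the gene differed by 0.84 (SE 0.063, adjusted p = 0.000107, limma) and the Eed region by 0.805 (SE 0.088, adjusted p = 0.000907, limma).

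The Ezh2 region was at 0.785, 0.777 and 0.662 in LAG3_SP, with no kept peak in DN (adjusted p = 0.00452, limma). The Kdm4a region was at 0.553, 0.633 and 0.788, with none in DN (adjusted p = 0.00363, limma). LAG3_SP replicate 3 was the lowest of its group at Tet2, Eed and Ezh2 and the highest at Kdm4a. The second Tet2 region, with no kept peak in DN or TDT_SP, rose too, and no p is given for it. For the Ncoa2 region inside the gene the adjusted p was 0.0151 (limma). The Kmt2a region was at 0.905, 0.816 and 0.651 (adjusted p = 0.0176, limma), Arid5a at 0.848, 0.641 and 0.330 (adjusted p = 0.0187, limma) and Arid5b at 0.832, 0.671 and 0.283 (adjusted p = 0.0216, limma).

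Further regions that rose in LAG3_SP were a pair 8.46 and 9.44 kb beyond Ncoa2 and a second Eed region. The Ncoa2 region at chr1:13382441-13382941 was at 0.721, 0.660 and 0.693 in LAG3_SP, against 0.306, 0 and 0 in DN (adjusted p = 0.0157, limma). Its neighbour at chr1:13383419-13383919 was at 0.784, 0.512 and 0.604, against 0.000737, 0 and 0.187 (adjusted p = 0.0174, limma). The Eed region at 58.66 kb (chr7:90039390-90039890) was at 0.336, 0.314 and 0.644 in LAG3_SP and had no kept peak in DN (adjusted p = 0.0327, limma).

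Regions that fell in LAG3_SP were near Arid1b, Satb1 and Hdac2. Arid1b, which encodes a subunit of the BAF complex, had a region inside the gene (chr17:5007072-5007572) with no kept peak in LAG3_SP and values of 0.802, 0.662 and 0.347 in DN (adjusted p = 0.021, limma). A region 85.98 kb from it (chr17:4908070-4908570) had none in LAG3_SP and 0.313, 0.217 and 0.411 in DN (adjusted p = 0.0191, limma). The Satb1 region named above also had none (adjusted p = 0.0309, limma). The Hdac2 promoter (chr10:36974074-36974574) was at 0.551, 0.652 and 0.634 in LAG3_SP, against 0.847, 0.820 and 0.848 in DN, with no overlap (-0.226, SE 0.060, adjusted p = 0.0462, limma). Hdac2 encodes a class I deacetylase, and its promoter was the strongest region of the gene. It was the one called tumor region within 1 kb of an annotated start, among members with a start in the promoter table.

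The LAG3_SP count was 10 without DN replicate 1, 8 without DN replicate 2, 6 without LAG3_SP replicate 1 and 10 without LAG3_SP replicate 2. With all peaks of each library 1 member region was called, the Tet2 region beyond the gene, and with the strongest 4000 none. All 16 calls held with the library set as a term, and 12 held in replicates 1 and 2 alone.

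TDT_SP minus DN, again with the same DN libraries, called 2 of 168 member regions higher and none lower (1.19%), against 0.576% of all regions (0.214% higher, 0.362% lower). The 2 called were the Tet2 region beyond the gene (difference 0.66, SE 0.063, adjusted p = 0.0032, limma) and a region 2.48 kb beyond Chd3, which encodes a remodeler of the NuRD complex. The Chd3 region (chr11:69340543-69341043) was at 0.221, 0.264 and 0.373 in TDT_SP, with no kept peak in DN or LAG3_SP. Its direction against those groups was therefore fixed, and no p is given for it. The Eed region did not pass (adjusted p = 0.0543, limma), nor did the Kdm4a region, at 0.518, 0.423 and 0.494 in TDT_SP (adjusted p = 0.0695, limma). The smallest p of the other classes belonged to the Satb1 region at 46.06 kb (adjusted p = 0.106), the Ncoa2 region inside the gene (adjusted p = 0.344) and a region inside Hdac7 (chr15:97836433-97836933, adjusted p = 0.408, all limma). The count was 4 without DN replicate 2 and 5 without DN replicate 4, and 0 with all peaks of each library. It was 5 with the library set as a term and 4 in replicates 1 and 2 alone, and both calls held in each. Neither call held in a fit on presence or absence of a peak. At an unadjusted p under 0.05, 19 member regions differed (11.3%), against 9.43% of all regions.

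DP, LAG3_SP and TDT_SP were also compared with each other. LAG3_SP minus DP called no member region and no region at all (0%), with limma. At an unadjusted p under 0.05, 12 member regions differed (7.14%), against 5.81% of all regions, and the smallest adjusted p was 0.803. TDT_SP minus DP called no member region, against 0.0333% of all regions (0.0185% higher, 0.0148% lower). Here 22 (13.1%) passed an unadjusted p under 0.05, against 11.7% of all regions, with a smallest adjusted p of 0.0752 (limma). A fit on presence or absence of a peak called 1 for TDT_SP minus DP and none for LAG3_SP minus DP. Without LAG3_SP replicate 3 the counts were 2 for LAG3_SP minus DP and 1 for TDT_SP minus DP.

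LAG3_SP minus TDT_SP called 1 member region higher and 2 lower (0.938% of all regions were called, 0.702% higher and 0.236% lower). The second Tet2 region was higher in LAG3_SP (0.57, SE 0.11). It had no kept peak in TDT_SP, so its direction was fixed and no p is given for it. The Chd3 region beyond the gene was lower (-0.286, SE 0.049). It had no kept peak in LAG3_SP or DN, so this difference restates the TDT_SP values given above, and no p is given. A region inside Chd3 (chr11:69366375-69366875) was at 0.0833, 0.335 and 0.242 in LAG3_SP, against 0.744, 0.758 and 0.832 in TDT_SP (adjusted p = 0.0423, limma). This count was 0 without LAG3_SP replicate 1 or without TDT_SP replicate 2. It was 1 without DN replicate 1, without DN replicate 2, without TDT_SP replicate 1 or without TDT_SP replicate 3, and it was 5 without DP replicate 4 and 10 without LAG3_SP replicate 3. It was 7 with the library set as a term, where the 3 calls held, and 7 in replicates 1 and 2 alone, where 1 of the 3 held.

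The 4 regions called in DP minus DN in every left-out fit were followed through the whole lists, which also gives their values in lymph nodes. Whole lists differ in length (14244 to 48268 peaks) and the regions were chosen for their difference in tumor, so these quantiles are a description and their levels are not compared between groups. At the Tet2 region the quantile in the whole list was 0.700 and 0.857 in the DLN and NDLN LAG3_SP libraries and 0.744 and 0.677 in the TDT_SP libraries, while both lymph node DN lists had no peak. In tumor DN the whole lists did hold a peak there, at 0.0458, 0.488 and 0.132. Tumor DN replicate 2 was the highest of the 3.

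The Ezh2 region was at 0.814 and 0.654 in lymph node LAG3_SP, 0.206 and 0.657 in TDT_SP and 0.0562 and 0 in DN. At the Eed region the DLN lists had no peak in any subset, and the NDLN lists had 0.555 in LAG3_SP, 0.0313 in TDT_SP and 0 in DN. The Kdm4a region was at 0.582 to 0.871 in the 9 DP, LAG3_SP and TDT_SP tumor lists and at 0 to 0.138 in the 6 lymph node lists.

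**Figure D3:**
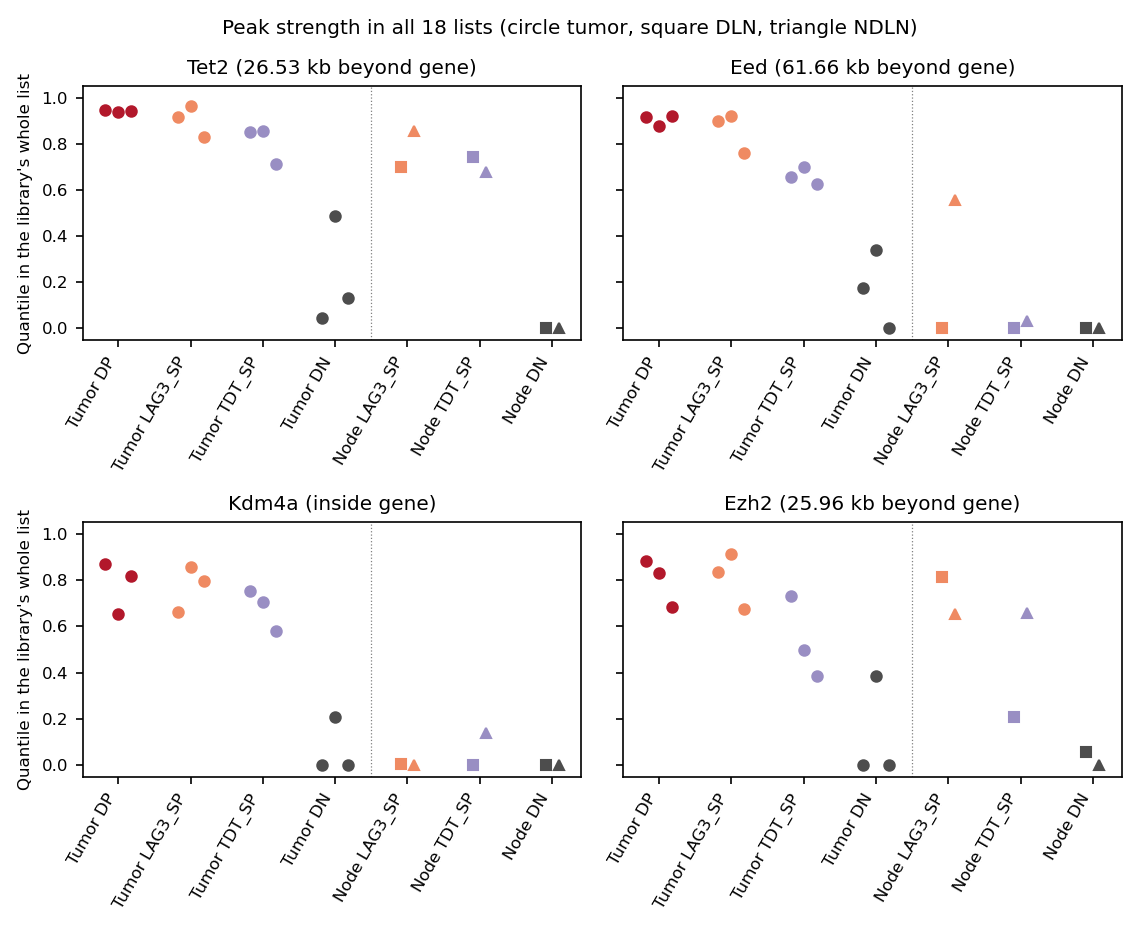
Quantile within the whole list (y axis, 0 to 1, 0 where no peak) of the 4 regions with the smallest p for DP minus DN in tumor, with 1 point per library and the sorted groups on the x axis. In tumor, DP, LAG3_SP and TDT_SP libraries lie above DN at Tet2, Eed and Kdm4a. In lymph nodes the Tet2 and Ezh2 regions have peaks in LAG3_SP and TDT_SP, while Kdm4a stays at 0.138 or below.

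Tumor was compared with lymph node over DN, LAG3_SP and TDT_SP together, with the subset as a covariate and DLN and NDLN pooled. Satb1, Chd7, Tet2, Dnmt3a, Arid1b and Arid5b had regions that were lower in tumor, while Kdm2b, Kdm6b, Smarca4, Ep300 and Kdm5a had regions that were higher. Of 157 member regions 15 rose and 22 fell (23.6%), against 22.2% of all 22997 regions, 10.4% higher and 11.7% lower, so the share of called regions was near the background. The median difference was 0.0123 over member regions and 0.0088 over all regions. Of the 22 regions that fell, 6 had no kept peak in any tumor library. Of the 15 that rose, 2 had none in any lymph node library. Such regions entered the fit only through the tissue where they were high, so their direction was fixed. Their spread is set partly by values of 0, and no p is given for them. By class, 0 rose and 6 fell of 23 regions in DNA methylation, 4 rose and 0 fell of 19 in Polycomb, and 5 rose and 0 fell of 18 in histone methylation. Genome architecture had 0 and 5 of 8, all 5 at Satb1, and remodeler and ARID genes 4 and 9 of 56. Deacetylases had 1 and 1 of 17 and acetyltransferases 1 and 1 of 16. These class counts include the regions whose direction was fixed. Those that rose were in Kdm6b and Kdm4a, and those that fell were at Satb1, Arid1b, Tet2 and Tet1.

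Satb1 had 6 regions, and 5 fell in tumor. At the upstream start, whose sequence is given above (chr17:51833007-51833507), the 9 tumor libraries had no kept peak. The 6 lymph node libraries had 0.0622 to 0.595 there (median 0.360), a difference of -0.324. At the inner start (chr17:51826434-51826934) the tumor libraries again had none. The lymph node libraries were at 0 to 0.509 there (median 0.214). Regions 43.39 and 46.09 kb upstream (chr17:51876434-51876934 and chr17:51879127-51879627) had adjusted p-values of 0.0149 and 0.00439 (limma). The fifth, inside the gene (chr17:51762437-51762937), had no kept peak in tumor. Among the strongest 14000 peaks, Satb1 had 0 to 3 peaks in the 12 tumor lists (median 0), against 4 to 7 in the lymph node lists (median 5.5). In the whole lists the upstream start still had peaks in 8 of the 12 tumor lists, at 0.236 to 0.667 where present. It had peaks in the 6 lymph node lists, at 0.602 to 0.765. The CpG-rich start at chr17:51832647 had peaks in 12 whole lists. Its quantiles were 0 to 0.667 in tumor lists and 0 to 0.627 in lymph node lists. Whole lists differ in length, so these levels are not compared. No kept peak in tumor therefore means none among the strongest 14000, and not the absence of a peak.

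DNA methylation genes had 6 regions that fell. The Tet2 promoter region (chr3:133544105-133544605) was at 0.598 to 0.838 (median 0.680) in tumor, against 0.850 to 0.902 (median 0.877) in lymph nodes, without overlap (-0.166, SE 0.037, adjusted p = 0.00569, limma). A region 18.61 kb from Tet2 also fell (adjusted p = 0.0294, limma), as did one at 69.29 kb, which had no kept peak in tumor. Of the Dnmt3a regions, one inside the gene (chr12:3855745-3856245) had a median of 0.218 in tumor and of 0.613 in lymph nodes (adjusted p = 0.0267, limma), and another (chr12:3823402-3823902) medians of 0 and 0.242 (adjusted p = 0.0284, limma). A region inside Tet1 had no kept peak in tumor and peaks in 3 of 6 lymph node libraries.

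Chd7 gave the smallest p. Its region at chr4:8799456-8799956, inside the gene, was at 0 to 0.332 (median 0) in tumor, against 0.484 to 0.856 (median 0.698) in lymph nodes, without overlap (-0.606, SE 0.090, adjusted p = 0.000708, limma). A further 3 Chd7 regions fell, with differences of -0.262, -0.298 and -0.248. Arid1b fell at the region inside the gene that was also lower in tumor LAG3_SP than in tumor DN (chr17:5007140-5007640, medians 0.113 and 0.783, adjusted p = 0.0118, limma). Arid5b had 2 regions that fell and 1 that rose, at chr10:68199366-68199866 with medians of 0.371 and 0 (adjusted p = 0.0159, limma). Single regions of Ncoa2, Hdac4 and Smarca2 fell, the Hdac4 region by 0.142 in rank value.

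**Figure D4:**
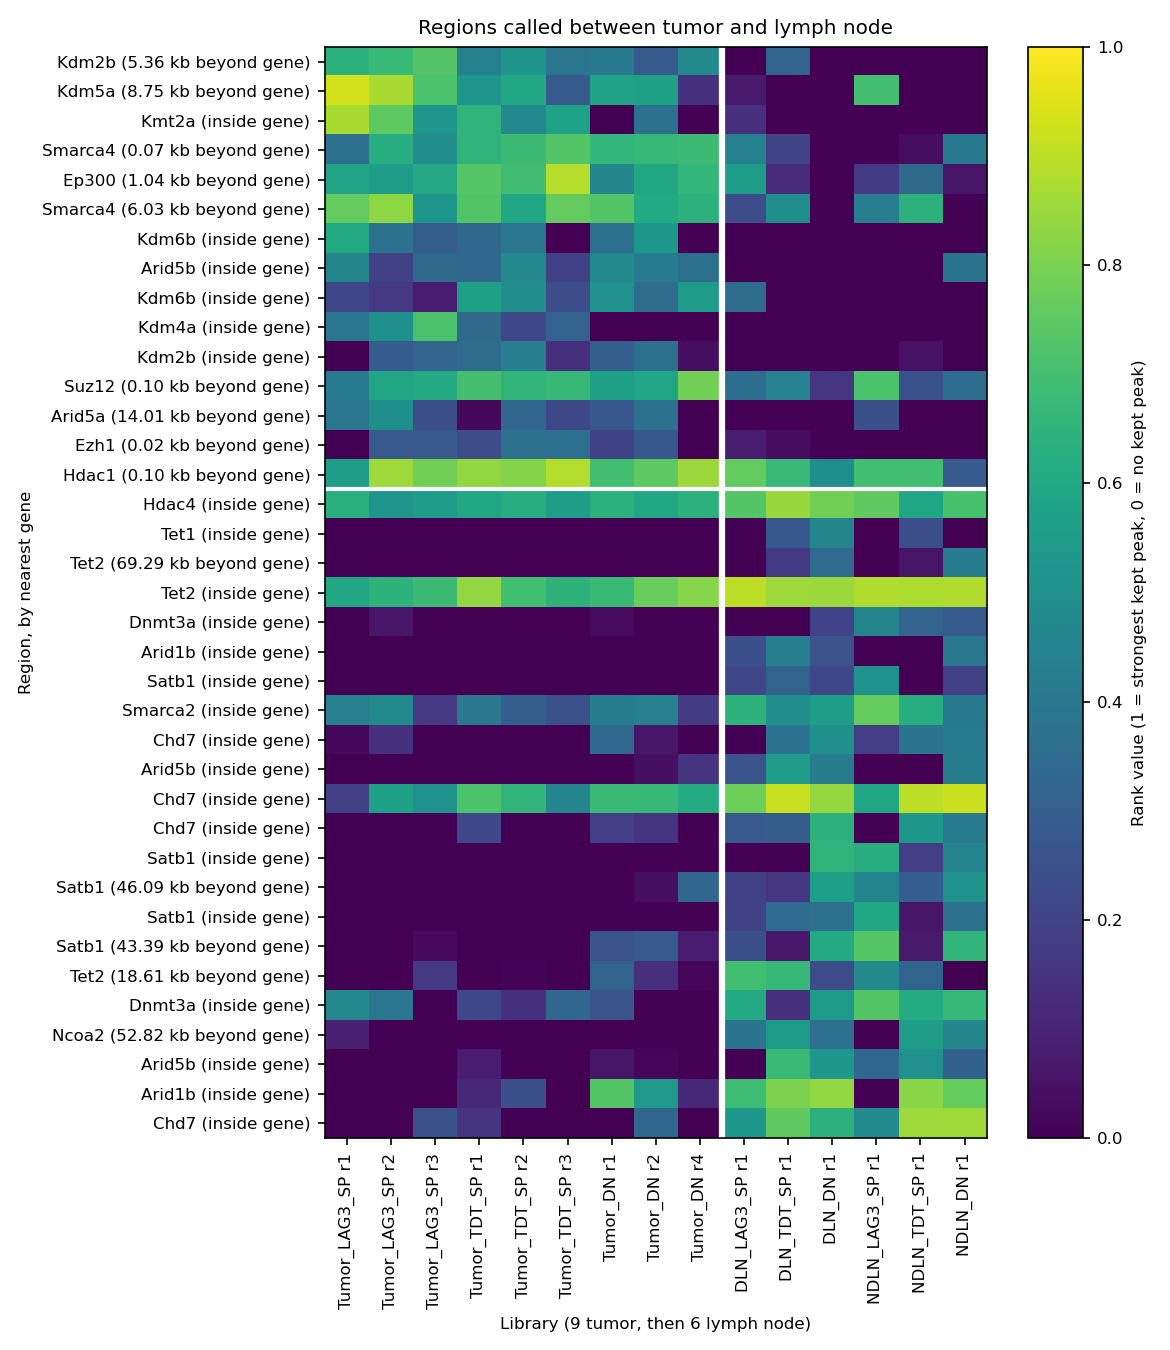
Rank value (color, 0 to 1) of the 37 member regions called between tumor and lymph node, with 9 tumor libraries left of the white line and 6 lymph node libraries right of it. The 15 rows above the horizontal line were higher in tumor and the 22 below it lower. The Satb1 rows are dark in most tumor libraries, with no kept peak in any of the 9 at 3 of the 5.

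All 9 regions called for Polycomb and histone methylation genes rose, but 2 of them, in Kdm6b and Kdm4a, had no kept peak in lymph nodes and could only rise. The Kdm2b region 5.36 kb from the gene (chr5:122994376-122994876) was at 0.289 to 0.732 (median 0.474) in tumor and had a kept peak in 1 of 6 lymph node libraries, at 0.321 (difference 0.455, SE 0.085, adjusted p = 0.00253, limma). Kdm2b encodes a demethylase that recruits a variant Polycomb complex to CpG islands, and its inner promoter rose too (adjusted p = 0.0242, limma). The Ezh1 promoter had medians of 0.275 and 0 (adjusted p = 0.0299, limma) and the Suz12 promoter of 0.613 and 0.358 (adjusted p = 0.0466, limma). A median of 0 here means no peak among the strongest 14000. In the whole lists the Ezh1 and inner Kdm2b promoter windows overlapped a peak in every lymph node list but NDLN LAG3_SP. Their quantiles there were 0.0948 to 0.620 for Ezh1 and 0.324 to 0.622 for Kdm2b. A pair of regions inside Kdm6b rose. One had medians of 0.370 and 0, with no kept peak in lymph nodes (chr11:69411674-69412174). The other had medians of 0.359 and 0 (chr11:69401214-69401714, adjusted p = 0.038, limma). Among the strongest 14000 peaks Kdm6b had 3 to 6 peaks in tumor lists (median 5), against 1 to 4 in lymph node lists (median 2).

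A region 8.75 kb from Kdm5a, a demethylase gene for histone H3 lysine 4 (chr6:120453070-120453570), had medians of 0.578 in tumor and 0 in lymph nodes (adjusted p = 0.00656, limma). The Kmt2a region named in the DP comparison also rose (adjusted p = 0.00672, limma). So did the Kdm4a region named there, which had no kept peak in lymph nodes. The Smarca4 promoter region (chr9:21615787-21616287) was at 0.368 to 0.731 (median 0.661) in tumor, against 0 to 0.441 (median 0.120) in lymph nodes (adjusted p = 0.00391, limma). With the strongest 4000 peaks its difference reversed to -0.0052. A second Smarca4 region at 6.03 kb rose as well (medians 0.728 and 0.333, adjusted p = 0.00505, limma). Ep300, the p300 acetyltransferase gene, rose at 1.04 kb from the gene (chr15:81584915-81585415, medians 0.603 and 0.150, adjusted p = 0.0028, limma). Hdac1 (adjusted p = 0.0438) and Arid5a (adjusted p = 0.0454, limma) complete the list.

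Of the regions that rose, 4 of 15 lay within 1 kb of a gene end, and of those that fell, 2 of 22. Among member regions tested, 36 of 157 lay that close (22.9%). Over all regions the shares were 60.6% of those that rose and 18.6% of those that fell, against 39.4% of those tested. Without the DLN DN library 24 member regions were called in place of 37. All peaks of each library gave 20, and the strongest 4000 gave 5. All 6 lymph node lists are numbered replicate 1. With the library set as a term 28 member regions were called, 25 of the 37 among them. In replicates 1 and 2 alone 24 were, 20 of the 37 among them. With each replicate number as a term 3 member regions were called, and 403 of 22997 regions in all.

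Within lymph nodes, with 1 DLN and 1 NDLN library per subset, LAG3_SP minus DN called 4 member regions higher and 12 lower (10.2%), against 11.4% of all regions (3.27% higher, 8.16% lower). TDT_SP minus DN called 5 higher and 11 lower (10.2%), against 8.01% of all (2.31% higher, 5.7% lower). Both use the same 2 DN libraries, and 9 regions were called in both. Of the calls, 6 of 16 and 7 of 16 were in regions without a kept peak in any of the 9 tumor libraries, and the spread of those regions is set partly by tumor values of 0. A fit of the 2 groups alone, without tumor, called none in either comparison.

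Regions that rose in lymph node LAG3_SP were the same Ezh2 and Tet2 regions as in tumor, with a region 0.102 kb beyond Hdac1 and the Hdac4 promoter. The Ezh2 region was at 0.547 and 0.648 in LAG3_SP, with no kept peak in DN (difference 0.60, SE 0.12, adjusted p = 0.00516, limma). The Tet2 region (in this fit chr3:133436905-133437405), was at 0.268 and 0.854 in LAG3_SP, against none in DN (adjusted p = 0.041, limma). The Hdac4 promoter was at 0.992 and 0.994, against 0.921 and 0.939 (adjusted p = 0.0403, limma), and Hdac1 at 0.761 and 0.695, against 0.499 and 0.285 (adjusted p = 0.0377, limma). In TDT_SP the 5 that rose included the Smarca4 region at 6.03 kb, at 0.4999 and 0.641, against none in DN (adjusted p = 0.00748, limma). A region at the edge of Kdm2b (chr5:122989024-122989524) was at 0.594 and 0.540 in TDT_SP, against 0.0664 and 0 in DN (adjusted p = 0.0157, limma). The other 3 lay inside Arid5b (chr10:68153900-68154400), Ncoa2 (chr1:13293378-13293878) and Hdac4 (adjusted p = 0.0239 for Hdac4, limma). The Arid5b and Ncoa2 regions had a kept peak in the 2 lymph node TDT_SP libraries and in no other, at 0.248 and 0.389 and at 0.276 and 0.168.

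The regions that fell had kept peaks in both lymph node DN libraries. An Arid1b region (chr17:5009813-5010313) had no kept peak in lymph node LAG3_SP or TDT_SP and was at 0.549 and 0.390 in DN. An Hdac4 region (chr1:92069413-92069913) had none in LAG3_SP or TDT_SP and 0.315 and 0.330 in DN, with a peak in 1 further library, from tumor. A region entered the fit only with a peak in 2 or more libraries, so a region with peaks in the 2 DN libraries alone had to differ. This was so for the Arid1b region, a second Hdac4 region (chr1:92130293-92130793) and single regions of Ncoa2 (chr1:13311758-13312258) and Tet3, and with the 2 TDT_SP regions above it touched 4 of the 16 calls for LAG3_SP and 6 of the 16 for TDT_SP. No p is given for these regions. Others were near Tet2 (69.29 kb), Ncoa2, Arid5b and Chd7. For LAG3_SP the count was 33 without the DLN LAG3_SP library. The subset effects also differed between the tissues (tumor difference minus lymph node difference) at 11 of 157 member regions for LAG3_SP, against 8.51% of all regions, and at 11 for TDT_SP, against 4.41%, and these include the regions with peaks in 2 libraries alone. The Kdm4a region was among them. There LAG3_SP exceeded DN by 0.536 in tumor and no lymph node library had a kept peak, so the value restates the tumor difference.

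DLN minus NDLN called no member region, against 0.0304% of all regions (0.0174% higher, 0.013% lower). At an unadjusted p under 0.05, 4 of 157 differed (2.55%), against 6.70% of all regions (limma), and fits on presence or absence and on all peaks also called none. The count was 1 without the DLN DN or without the NDLN DN library.

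Among 74 other chromatin genes, 67 had 188 regions in the tumor fit. DP minus DN called 4 higher and 3 lower (3.72%), against 3.94% of all regions, and LAG3_SP minus DN also 4 higher and 3 lower (3.72%), against 5.61%. TDT_SP minus DN called 0 and 1 (0.532%), against 0.576%, and LAG3_SP minus TDT_SP 1 and 0 (0.532%), against 0.938%. None of these 4 shares exceeded that of all regions. Genes called in both of the first comparisons were Tdg, a thymine DNA glycosylase gene that acts after TET enzymes, and Mbd2, a methyl-CpG binding protein gene, both higher. For DP the Tdg difference was 0.61 (adjusted p = 0.00732) and the Mbd2 difference 0.55 (adjusted p = 0.013, limma). For LAG3_SP they were 0.67 (adjusted p = 0.00363) and 0.72 (adjusted p = 0.00271, limma). Chd1 and Nsd3 fell in both, by 0.441 and 0.421, and Chd2 had regions in both directions. Kdm1a had a call for LAG3_SP (adjusted p = 0.0396, limma), and the difference between LAG3_SP and DP was not called there. Tumor minus lymph node called 23 higher and 14 lower of 162 (22.8%), close to the background of 22.2%. Nsd3 had the most called regions there, 4.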

How the data were processed

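Omni-ATAC peak lists of 24 libraries in 10 groups were used, one list per library. BWA, MACS2 and the build GRCm38 (mm10) come from the submitters' processing notes; tool versions and settings: not given in the sources used here. The deposited narrowPeak rows hold a score, a fold ratio over background, -log10 p, -log10 q and another value, the summit offset. Of the deposited values, -log10 p as an order within a library and the summit were used. Depth behind a peak is unknown, since read counts were not used here, and the 18 lists used held 14244 to 48268 peaks.

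Lists under 10000 rows were left out. The strongest 19000 (tumor) or 14000 (tumor and nodes) peaks per library were ranked. Fixed-width regions around summits with peaks in at least 2 libraries were fitted with limma 3.58.1 in R 4.3.3 (trend), after a check on simulated data. Each node group has 1 library, so limma assumes that it varies like the others. Genes came from RefSeq (21631 protein-coding). Python 3.11.15 was used. The members and lists were chosen with earlier results of these data known. The naming rule took called member regions (at most 12 per comparison by smallest p), the smallest p of a class without a call, each member's strongest region, members with most and fewest regions, and called genes among other chromatin genes. Called regions beyond those 12, and the whole-list and per-gene peak counts, were chosen after their values were seen. For comparisons with no call at all and for node classes without one, only the smallest p overall or none is given. Alternatives were all peaks, the strongest 4000 with short lists included, presence or absence, summit overlap, 2 groups alone, the replicate block and leaving out each library. The library set of tumor replicates 3 and 4, as a term or left out, and the difference between tumor and node effects were added after the data were seen. Not every called gene among the other chromatin genes is reported here.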

Additional observations from a re-analysis of the deposited data

Results flagged for a closer look

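The effect of a subset relative to DN was compared between tumor and lymph node (the tumor difference minus the lymph node difference, in rank value, limma, chosen after the data were seen). For LAG3_SP 11 of 157 member regions differed, against 8.51% of all regions, and for TDT_SP 11, against 4.41%. Each value below is such a difference between the 2 tissues.

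For LAG3_SP, 3 regions had a positive effect in tumor. The Kdm4a region inside the gene differed by 0.536 and had no kept peak in the 6 lymph node libraries, so this value restates the tumor difference. The Ncoa2 region at 8.46 kb differed by 0.423 (adjusted p = 0.0488, limma) and the one at 9.44 kb by 0.502. At 9.44 kb the lymph node difference was 0, so that value also restates the tumor difference.

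The other 8 for LAG3_SP were positive, with peaks in both lymph node DN libraries and none, or 1 at 0.0391 for Chd7, in lymph node LAG3_SP libraries. They were Arid1b at chr17:5009813-5010313 (0.469), Arid5b at chr10:68277671-68278171 (0.391), Tet2 at 69.29 kb (0.385), Chd7 at 23.44 kb (0.380), Hdac4 at chr1:92069413-92069913 (0.317), Ncoa2 at chr1:13311758-13312258 (0.263), Tet3 (0.214) and Hdac4 at chr1:92130293-92130793 (0.134). Of the 8, 5 had no kept peak in the 9 tumor libraries, so their tumor effect was 0 and the value is the lymph node difference with its sign turned. Of these, 4 (Arid1b, Ncoa2, Tet3 and Hdac4 at chr1:92130293-92130793) entered the fit only through peaks in the 2 lymph node DN libraries. The other 3, Hdac4 at chr1:92069413-92069913, Chd7 and Arid5b, had a tumor peak in 1 to 3 libraries.

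For TDT_SP the same 8 regions differed, by 0.469 (Arid1b), 0.360 (Arid5b), 0.273 (Tet2), 0.399 (Chd7), 0.317 and 0.134 (Hdac4), 0.263 (Ncoa2) and 0.214 (Tet3). A further 3 were negative, from peaks in lymph node TDT_SP libraries: Hdac4 at chr1:92004158-92004658 (-0.345), Arid5b at chr10:68153900-68154400 (-0.318) and Ncoa2 at chr1:13293378-13293878 (-0.222). The Arid5b and Ncoa2 regions had a kept peak in the 2 lymph node TDT_SP libraries alone, so their values also restate the lymph node difference. The adjusted p for Hdac4 was 0.0473 (limma).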

How the results depend on the processing

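Of 10 counts of called member regions, LAG3_SP minus DP and DLN minus NDLN stayed at 0 in every setting other than leaving out a library, and requiring the summit inside the region kept all 10 within 1.5 times. Counts moved elsewhere, given in the order DP minus DN, LAG3_SP minus DN, TDT_SP minus DN, LAG3_SP minus TDT_SP (12, 16, 2 and 3 at the main setting). All peaks of each library gave 2, 1, 0 and 0, the strongest 4000 gave 0 in all 4, presence or absence gave 7, 10, 4 and 1, and a fit of the 2 groups alone 2, 0, 0 and 0. Presence or absence gave 1 for TDT_SP minus DP. For tumor minus lymph node (37), all peaks gave 20, the strongest 4000 gave 5 and presence or absence 15. For lymph node LAG3_SP and TDT_SP minus DN (16 each), the strongest 4000 gave 1 and 1, presence or absence 10 and 9, and 2 groups alone 0 and 0. The cause was not tested, other than that the strongest 4000 left 36 and 37 member regions to test.

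Leaving out each library gave 5 to 12 for DP minus DN, 6 to 22 for LAG3_SP minus DN, 2 to 5 for TDT_SP minus DN, 0 to 2 for LAG3_SP minus DP, 0 to 1 for TDT_SP minus DP, 0 to 10 for LAG3_SP minus TDT_SP, 24 to 39 for tumor minus lymph node, 11 to 33 and 13 to 20 for lymph node LAG3_SP and TDT_SP minus DN, and 0 to 1 for DLN minus NDLN. Of the called regions, 4 of 12, 5 of 16, 2 of 2, 0 of 3, 22 of 37, 9 of 16 and 10 of 16 were called in every such fit, in the order of the nonzero counts above.

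Deviations of same-numbered tumor libraries correlated at 0.027 to 0.268 (mean 0.116 over 14 pairs, 7 over 0.1), against a mean of -0.0374 over 40 other pairs, so the numbers did not pair every library, although replicates 3 and 4 correlated across groups. With that library set as a term TDT_SP minus DN gave 5 and LAG3_SP minus TDT_SP 7. Replicates 1 and 2 alone gave 4 and 7, and 24 for tumor minus lymph node. The replicate block gave 13, 13, 1 and 0 in the 4 tumor comparisons, 3 for tumor minus lymph node (403 of 22997 regions in all, with every lymph node list numbered 1) and 12 and 15 in lymph nodes. Reversed differences were -0.0052 for Smarca4 at chr9:21615787-21616287 (tumor minus lymph node, strongest 4000) and 0.0578 for Arid5b at chr10:68277671-68278171 (lymph node TDT_SP minus DN, summit inside the region). Without read counts, weak peaks and missing peaks cannot be told apart beyond list length.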

Other observations

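The 6 short lists, which entered no main comparison, held few peaks at the 44 genes: 0 of 301 in DLN DN replicate 2, 0 of 321 in NDLN TDT_SP replicate 2, 20 of 3909 in DLN TDT_SP replicate 2, 20 of 4603 in tumor DN replicate 3, 22 of 5188 in tumor DP replicate 3 and 31 of 6613 in NDLN DN replicate 2.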
